A study of Mus musculus with 9 samples.

Results

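The expression of 8 interleukin-1 and inflammasome genes was examined in mouse aortas: the ligands Il1a, Il1b and Il18, the receptor antagonist Il1rn, the sensor Nlrp3, the adaptor Pycard, the protease Casp1 and the pore protein Gsdmd. They were picked by name, as genes of 1 pathway, from the 54532 genes of the table, with earlier results of these data known. All 9 aortas came from Apoe-/- mice, which lack apolipoprotein E and develop atherosclerosis. The mice were 6 to 8 weeks old and were kept for 24 weeks on 1 of 3 regimens. The CD group received chow, the HFD group received a high fat diet, and the HFD_IO group received the high fat diet with iron overload from ammonium iron(III) citrate injected into the peritoneum. Each group had 3 RNA-seq libraries, named here CD_1 to CD_3, HFD_1 to HFD_3 and HFD_IO_1 to HFD_IO_3, and no group received chow with iron. The labels do not state sex, pooling or batches, so p-values cover the spread between these libraries. Since every group lacks Apoe, nothing here describes a wild-type artery.

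Interleukin-1 alpha and interleukin-1 beta are alarm cytokines that bind the same receptor, and the product of Il1rn occupies that receptor without starting a signal. Interleukin-1 beta and interleukin-18 are made as inactive precursors. In the canonical pathway the sensor NLRP3 assembles with the adaptor ASC, the product of Pycard, and activates caspase-1, which cuts both precursors and gasdermin D, whose released fragment forms pores in the plasma membrane. In atherosclerotic arteries macrophages are a well-known source of these proteins. The measurements here are of RNA and say nothing of precursor cutting or secretion.

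The 250 bases before the start site are shown for Il1b, Il1rn and Nlrp3, the agonist, the antagonist and the sensor among the genes whose RNA was higher with iron. They are RefSeq sequences on GRCm38.p6, written 5′ to 3′ on the gene's own strand, and capitals mark matches to the motifs named after them. The Il1b window lies at chr2:129371140-129371389 on the minus strand, that of Il1rn at chr2:24336610-24336859 on the plus strand, and that of Nlrp3 at chr11:59541319-59541568 on the plus strand. RefSeq lists 3 windows for Il1rn and 2 for Nlrp3, and the one nearest to the 5′ end of the gene in the table is shown.
Il1b: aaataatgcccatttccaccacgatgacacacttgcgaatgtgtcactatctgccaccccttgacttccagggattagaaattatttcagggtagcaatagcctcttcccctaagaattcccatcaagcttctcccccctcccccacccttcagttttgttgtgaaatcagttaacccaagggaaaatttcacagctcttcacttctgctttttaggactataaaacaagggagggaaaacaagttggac
Il1rn: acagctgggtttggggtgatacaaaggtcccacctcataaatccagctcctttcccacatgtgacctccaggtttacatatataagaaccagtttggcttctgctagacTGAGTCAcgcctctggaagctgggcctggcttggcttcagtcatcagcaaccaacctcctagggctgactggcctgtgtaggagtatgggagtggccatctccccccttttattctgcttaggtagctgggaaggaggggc
Nlrp3: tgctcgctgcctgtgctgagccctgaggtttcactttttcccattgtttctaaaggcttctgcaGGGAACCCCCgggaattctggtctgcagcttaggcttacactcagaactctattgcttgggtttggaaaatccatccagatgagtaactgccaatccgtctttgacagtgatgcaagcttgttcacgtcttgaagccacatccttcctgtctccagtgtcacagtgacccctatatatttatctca

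Motifs for 4 factors that act on myeloid and inflammatory genes were searched on both strands of 300-base windows, 250 bases before and 50 after the start, for the 7 members with a RefSeq window; Gsdmd had no entry. The motifs were NF-kappaB by its 10-base consensus, PU.1 as AGGAAGT, C/EBP as TTGCNNAA and AP-1 as TGANTCA. The Il1rn window held 1 AP-1 match, TGAGTCA, 141 bases before the start, and the Nlrp3 window held 1 NF-kappaB match, 186 bases before the start. Il1a had an AP-1 match, TGACTCA, 12 bases before its start. Pycard had a PU.1 match 44 bases and a C/EBP match 142 bases before its start. No match was found in the windows of Il1b, Il18 or Casp1, which says only that these letters are not in those windows. Of 32851 mouse windows of the same length, 4.51% held the NF-kappaB motif, 9.35% PU.1, 10.8% C/EBP and 7.81% AP-1.

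Levels are in FPKM as deposited, which scales the fragments of a gene by its length and by a size factor of the library. Multiplied by the gene length they gave whole reads, 16660963 to 18308450 per library, and 1 read in a gene of 1 kilobase was worth 0.0541 to 0.0615 FPKM. The worth of a read did not follow these totals. It was 0.0615 FPKM in HFD_3 with 18158642 reads and 0.0544 FPKM in CD_1 with 16660963 reads, so the deposited scaling is not by these totals alone. The genotype could not be checked from Apoe, which was listed at 9.73 to 21.9 FPKM in all groups, because the labels do not say which exons the allele removes. Over 13883 genes that reached 1 FPKM in at least 3 of 9 libraries, 3030 were higher and 2440 lower in HFD than in CD, 1956 higher and 2013 lower in HFD_IO than in HFD, and 2427 higher and 2089 lower in HFD_IO than in CD. Scaling to TPM, in which the length-scaled levels sum to the same total in every library, moved the median log2 change of all genes to -0.30, 0.14 and -0.23, and the splits to 1018 and 4948, 2373 and 1160, and 1528 and 3800. CD_1 and HFD_2 stood apart by their lymphocyte RNA: 9 T cell markers summed to 48 FPKM in CD_1 and 45.2 FPKM in HFD_2 against 8.26 to 29.7 FPKM elsewhere, and 6 B cell markers summed to 104 FPKM in HFD_2 against 3.58 to 17.5 FPKM elsewhere. HFD_2 and HFD_3 stood apart by skeletal muscle RNA, with 7 markers at 83.6 and 52.1 FPKM against 2.69 to 12.4 FPKM elsewhere, and HFD_3 by adipocyte RNA, with 7 markers at 1017 FPKM against 133 to 474 FPKM elsewhere.

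The 8 genes spanned a wide range of levels, and their order changed between the groups. In CD aortas Gsdmd was the highest at a mean of 11.1 FPKM, followed by Casp1 at 6.68 FPKM, and both stood clear of the gene below them. Pycard followed at 1.62 FPKM, and from there to Il1a, the lowest at 0.187 FPKM, each neighbour overlapped the next. In HFD aortas Il1rn had moved from the seventh to the third place, with a mean of 4.09 FPKM that overlapped Pycard at 3.79 FPKM, and Nlrp3 was the lowest at 0.508 FPKM. In HFD_IO aortas Casp1 at 14.5 FPKM, Gsdmd at 13.3 FPKM and Il1rn at 10.4 FPKM formed an upper group whose neighbours overlapped, while the other 5 genes lay between 1.95 and 4.58 FPKM. The gene lengths behind these values join all annotated exons. They are longer than the principal transcript for Il1rn, 5535 against 2474 bases, for Il1b, 1907 against 1356 bases, for Il18, 1031 against 702 to 860 bases, and for Gsdmd, 2377 against 1792 bases, so the levels of these 4 genes per transcript length are understated relative to the others.

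**Figure D1:**
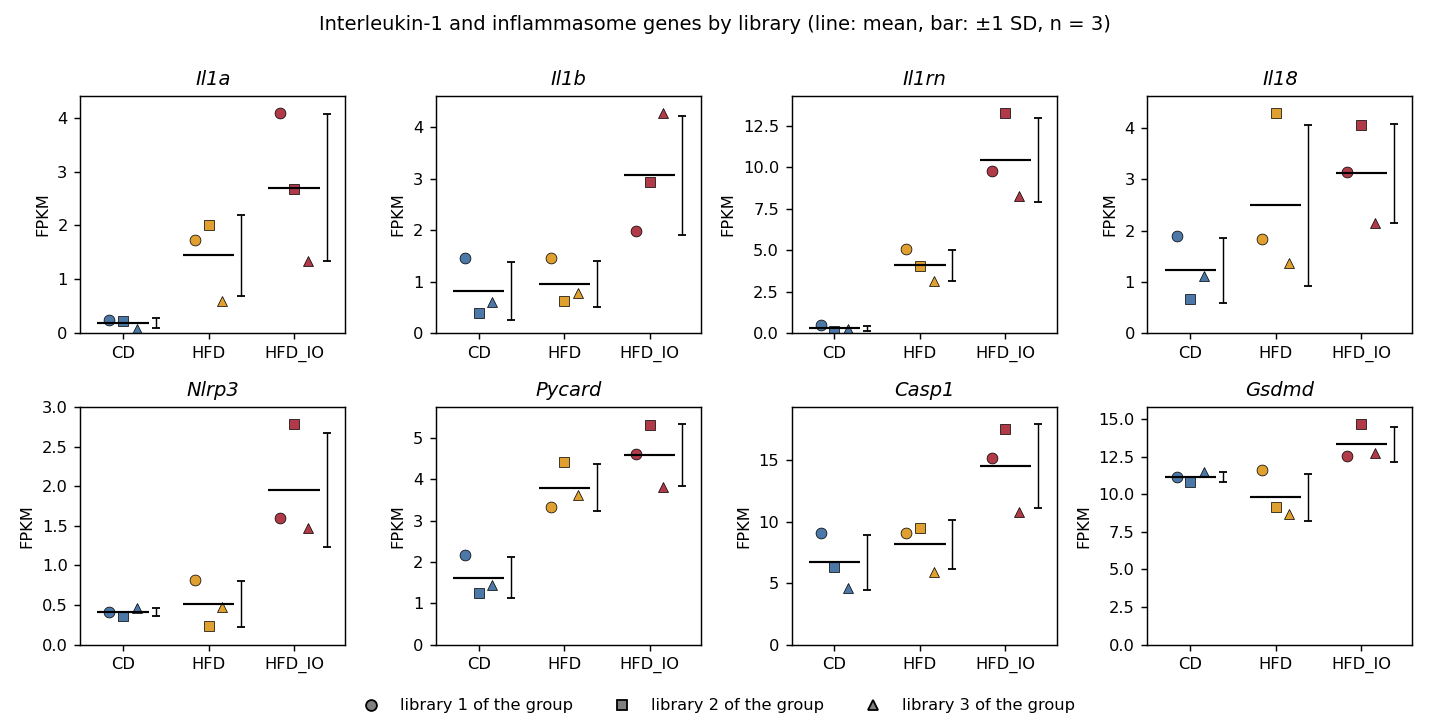
FPKM of the 8 genes in each of the 9 libraries, by group (x axis); points are libraries, horizontal lines are group means and side bars are ±1 SD (n = 3). Il1rn separates all 3 groups, Il1b, Nlrp3, Casp1 and Gsdmd have their 3 highest values in HFD_IO, and Il18 overlaps between HFD and both other groups.

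Among the ligands, Il1a was higher on the high fat diet and Il1b was higher when iron was added. Il1a, an alarm cytokine that is active without caspase-1 cutting, measured 0.248, 0.230 and 0.0835 FPKM in the CD libraries, 1.74, 2.00 and 0.592 FPKM in the HFD libraries and 4.08, 2.67 and 1.35 FPKM in the HFD_IO libraries. These values rest on 3 to 9 reads per CD library, 19 to 66 per HFD library and 47 to 149 per HFD_IO library. Every HFD library was above every CD library, while HFD and HFD_IO overlapped. On the log2(FPKM + 1) scale used for all tests, which understates the changes of low genes, Il1a rose by 0.99 (SE 0.31, adjusted p = 0.0311) from CD to HFD. The difference between HFD_IO and HFD was 0.58 (95% interval -0.11 to 1.28, adjusted p = 0.183). The Il1a rise on the high fat diet was close to the threshold: without any one of CD_1, CD_2, CD_3, HFD_1 or HFD_2 its adjusted p lay between 0.0507 and 0.103, and without HFD_3 it was 0.0140.

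Il1b, the caspase-1 substrate that gives the pathway its main secreted agonist, measured 1.45, 0.386 and 0.605 FPKM in CD, 1.47, 0.627 and 0.774 FPKM in HFD, and 1.99, 2.95 and 4.28 FPKM in HFD_IO. CD and HFD overlapped over most of their range, and all 3 HFD_IO libraries were above all 6 others. The log2 difference was 0.13 (95% interval -0.50 to 0.75, adjusted p = 0.734) between HFD and CD, and Il1b rose by 1.04 (SE 0.28, adjusted p = 0.0231) from HFD to HFD_IO, a 3.21-fold higher mean FPKM. This call was lost without HFD_2, HFD_3, HFD_IO_2 or HFD_IO_3 (adjusted p 0.0606 to 0.0727). Within the HFD_IO group the library with the highest Il1a had the lowest Il1b, and the library with the highest Il1b had the lowest Il1a. Neutrophils are another source of Il1b, and their 12 markers summed to 10.9 to 51.2 FPKM in CD, 27.7 to 33.2 FPKM in HFD and 38.6, 128 and 78.8 FPKM in HFD_IO; the part of these cells in the Il1b difference was not tested. Of the 8 neutrophil markers tested with limma, 0 changed between HFD and CD (1 at an unadjusted p below 0.05, and 0 with limma's voom on reads), and 2 rose from HFD to HFD_IO. Among all genes tested 21.8% rose and 17.6% fell from CD to HFD, and 14.1% rose from HFD to HFD_IO.

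Il1rn, the antagonist, had the clearest separation of the 8 genes. It measured 0.471, 0.164 and 0.278 FPKM in CD, 5.07, 4.03 and 3.18 FPKM in HFD, and 9.78, 13.3 and 8.30 FPKM in HFD_IO, from 16 to 48, 286 to 491 and 811 to 1280 reads. No library of one group reached the range of another. The mean was 13.4-fold higher in HFD than in CD and 2.55-fold higher in HFD_IO than in HFD. Il1rn rose by 1.96 (SE 0.19, adjusted p = 0.000427) from CD to HFD and by 1.16 (SE 0.19, adjusted p = 0.00363) from HFD to HFD_IO on the log2 scale.

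Il18, the other cytokine substrate of caspase-1, showed no change that passed the test. It measured 1.90, 0.660 and 1.12 FPKM in CD, 1.83, 4.29 and 1.37 FPKM in HFD and 3.15, 4.06 and 2.14 FPKM in HFD_IO. The single highest value was that of HFD_2, the library with the most B cell RNA, whose part in this value was not tested. The log2 difference was 0.60 (95% interval -0.13 to 1.33) between HFD and CD and 0.30 (95% interval -0.43 to 1.02) between HFD_IO and HFD. All 3 HFD_IO libraries were above all 3 CD libraries, with a difference of 0.90 (adjusted p = 0.0599) that passed the test without CD_1 (1.11, adjusted p = 0.0390) and with only these groups in the model (0.0340). Bco2 overlaps Il18 on the opposite strand and was listed at 0.104 to 0.936 FPKM; no source used here says whether the counting took strand into account, so reads could be shared between them. The genes opposite Il1a, Il1b and Pycard were listed at no more than 0.255 FPKM.

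In the inflammasome itself, the adaptor Pycard rose with the high fat diet, and the sensor Nlrp3 and the pore protein Gsdmd rose when iron was added to it. Nlrp3, which senses potassium loss and organelle stress, measured 0.415, 0.363 and 0.460 FPKM in CD, 0.817, 0.236 and 0.470 FPKM in HFD and 1.60, 2.78 and 1.48 FPKM in HFD_IO. The CD range lay inside the HFD range, and every HFD_IO library was above all 6 others. Nlrp3 reached 1 FPKM only in the 3 HFD_IO libraries and passed the filter through them, so a tested Nlrp3 had to differ. Nlrp3 rose by 0.96 (SE 0.20, adjusted p = 0.00963) from HFD to HFD_IO, with a 3.85-fold higher mean FPKM. The difference between HFD and CD was 0.08 (95% interval -0.38 to 0.53). With no filter on low values, where Nlrp3 is tested whatever its level, the adjusted p of this rise was 0.0253. The highest Nlrp3 level was in HFD_IO_2. This library also had the highest summed levels of neutrophil markers (128 FPKM) and of macrophage markers (9666 FPKM), and the part of these cells was not tested.

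Pycard, which joins sensor and protease, measured 2.17, 1.24 and 1.45 FPKM in CD, 3.32, 4.42 and 3.63 FPKM in HFD and 4.61, 5.31 and 3.82 FPKM in HFD_IO. The HFD and CD libraries did not overlap, and the HFD and HFD_IO libraries did. Pycard rose by 0.88 (SE 0.16, adjusted p = 0.00377) from CD to HFD, and the difference from HFD to HFD_IO was 0.22 (95% interval -0.15 to 0.58).

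Casp1, the protease, measured 9.08, 6.32 and 4.62 FPKM in CD, 9.09, 9.51 and 5.88 FPKM in HFD and 15.2, 17.5 and 10.8 FPKM in HFD_IO. All HFD_IO libraries were above all others, yet the 0.76 difference from HFD (SE 0.25, adjusted p = 0.0522) missed the threshold. It passed under several other settings: without HFD_IO_3 (adjusted p = 0.0404), with TPM (0.0412), with voom on reads (0.0407), with a pseudocount of 5 (0.0444), at FPKM of at least 5 (0.0407), with only these groups in the model (0.0440) and with the trend over gene length removed (0.0181). Casp1 rose by 1.03 (adjusted p = 0.0135) from CD to HFD_IO, a call that was lost without HFD_IO_2 (adjusted p = 0.0559).

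Gsdmd, the pore protein, had the narrowest range, with 11.1, 10.8 and 11.5 FPKM in CD, 11.6, 9.16 and 8.67 FPKM in HFD and 12.6, 14.6 and 12.8 FPKM in HFD_IO. The HFD_IO libraries were above all others by a small margin. Gsdmd rose by 0.41 (SE 0.12, adjusted p = 0.0277) from HFD to HFD_IO, a 1.36-fold higher mean, and leaving out any one of HFD_2, HFD_3, HFD_IO_1, HFD_IO_2 or HFD_IO_3 ended the call (adjusted p 0.0527 to 0.0959). Between HFD and CD the log2 difference was -0.18 (95% interval -0.44 to 0.08). It passed the test as a fall with TPM (-0.57, adjusted p = 0.0208) and with the trend over gene length removed (-0.38, adjusted p = 0.0384). The median log2 change of all genes tested was -0.30 with TPM and 0.04 with the length trend removed.

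By comparison, 3 of the 8 genes were higher in HFD than in CD (Il1a, Il1rn and Pycard), against a background of 21.8% of all genes tested. In HFD_IO against HFD 4 were higher (Il1b, Il1rn, Nlrp3 and Gsdmd), against a background of 14.1%. In HFD_IO against CD 6 were higher (all except Il18 and Gsdmd), against a background of 17.5%. Nlrp3 is in both of these counts and passed the filter through HFD_IO alone, so the counts without it, 3 and 5 of 7 genes, are the ones to set beside the background. With limma 0 were lower in each of the 3 comparisons, against backgrounds of 17.6%, 14.5% and 15.0%. This also held at an unadjusted p below 0.05 and with voom on reads. In HFD against CD 1, Gsdmd, was lower with TPM and with the trend over gene length removed. Of all 13883 genes tested, 4948 were lower there with TPM and 2098 with the length trend removed. The median log2 change of the 8 genes, Nlrp3 included, was 0.44, 0.67 and 1.07, beside medians of all genes tested of 0.06, 0.00 and -0.01. Values above all libraries of the other group were found for 3, 5 and 8 genes, against 28.2%, 24.1% and 24.3% of genes tested. The 5 and the 8 include Nlrp3, which the filter placed above the other group, so its part in them was fixed beforehand. The comparisons share libraries and are not independent of each other. Leaving out CD_1 and HFD_2 together was a choice made after the data were seen. Of all 13883 genes tested, 2699, 1953 and 2454 were then higher. The counts of members called higher were 2, 4 and 7. The last 2 of these counts include Nlrp3. Il1a was lost from the first (adjusted p = 0.128), Gsdmd gave way to Casp1 in the second (0.0783 and 0.0402), and Il18 joined the third (0.0104).

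**Figure D2:**
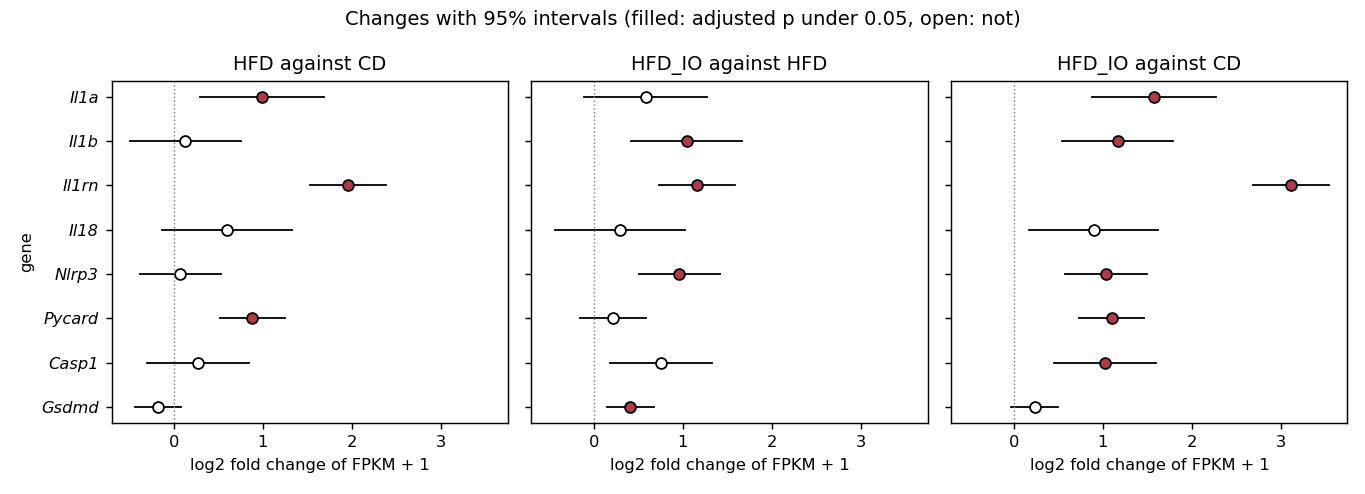
Log2 change of FPKM + 1 (x axis) for each gene (y axis) with its 95% interval in 3 comparisons; filled points have an adjusted p below 0.05. Il1rn is filled in every panel, and Il1b and Nlrp3 are filled in both comparisons of HFD_IO and open in HFD against CD. Nlrp3 passed the filter through HFD_IO alone, so its direction in both comparisons of HFD_IO was fixed beforehand.

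The balance of agonist and antagonist RNA was set out library by library. The ratio of Il1b to Il1rn in FPKM was 3.08, 2.36 and 2.18 in CD, 0.290, 0.156 and 0.244 in HFD and 0.203, 0.222 and 0.515 in HFD_IO. CD libraries had more Il1b than Il1rn and all 6 high fat diet libraries had less. The difference of log2(FPKM + 1) between the 2 genes was itself different by -1.83 in HFD against CD, with no overlap, and by -0.12 in HFD_IO against HFD, with overlap. An exact two-sided permutation test of 3 against 3 libraries cannot go below p = 0.1, which the first contrast reached (0.2 after adjustment over 12 such contrasts), and the second gave p = 0.8. Because the length used for Il1rn is longer than its principal transcript, the level of the ratio is overstated. A fixed length leaves the group differences of the FPKM ratio unchanged, but not those of log2(FPKM + 1), where it sets how far low values are shrunk. The size of the HFD against CD difference depended on the scale, with -3.12 at a pseudocount of 0.1, -0.74 at a pseudocount of 5 and -2.56 with TPM.

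The other pairs were followed in the same way. The ratio of Il18 to Il18bp, which encodes a soluble protein that binds and neutralises interleukin-18, was 0.343, 0.205 and 0.301 in CD, 0.113, 0.265 and 0.193 in HFD and 0.140, 0.130 and 0.225 in HFD_IO, so the FPKM ratios of the groups overlapped; on the log2(FPKM + 1) scale the pair differed by -0.80 in HFD against CD without overlap. The ratio of Il1b to Il18, the cytokine substrates of caspase-1, ran from 0.146 in HFD_2 to 2.00 in HFD_IO_3, and all groups overlapped. The ratio of the decoy receptor Il1r2 to the signalling receptor Il1r1 was 0.014 to 0.021 in CD, 0.050 to 0.067 in HFD and 0.037 to 0.091 in HFD_IO. Every high fat diet library was above every CD library for this pair, by a log2 difference of 0.65 in HFD against CD (exact permutation p = 0.1, the smallest possible, and 0.2 adjusted). Its size depended on the scale, with 1.34 at a pseudocount of 0.1, 0.33 at a pseudocount of 5 and 1.17 with TPM, and Il1r2 in CD rests on 5 to 8 reads per library.

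**Figure D3:**
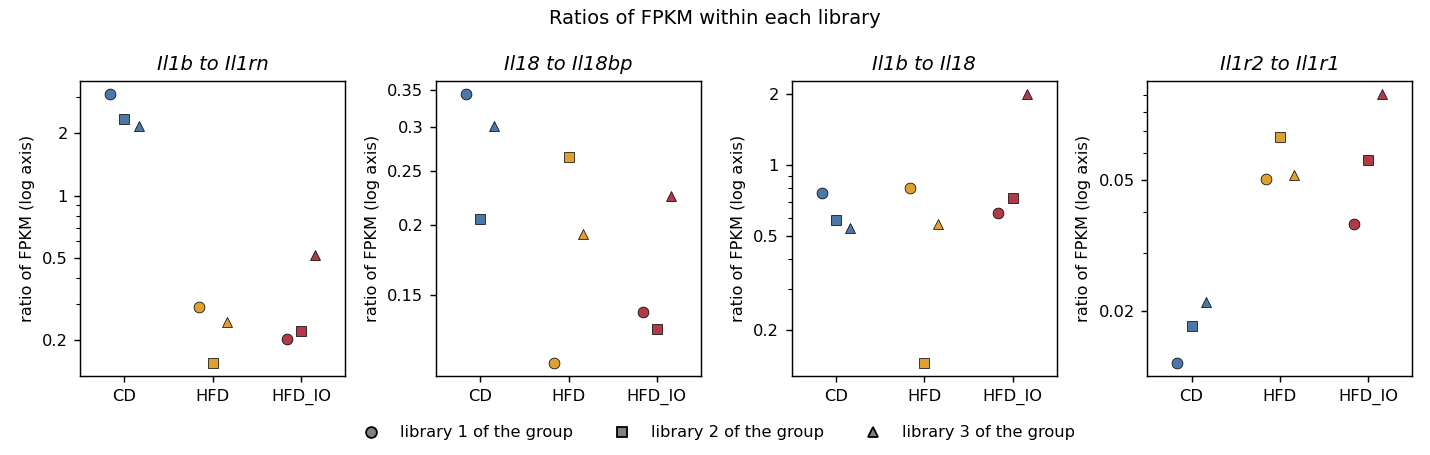
Ratios of FPKM within each of the 9 libraries (y axes, log scale) by group (x axis), with 1 point per library. The Il1b to Il1rn ratio is above 2 in the 3 CD libraries and at most 0.515 in the 6 others.

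Macrophage markers moved with the groups, and the members were set against them. The 16 markers summed to 722 to 811 FPKM in CD, 3385 to 5584 FPKM in HFD and 5703 to 9666 FPKM in HFD_IO. Of these 16, 15 rose from CD to HFD, 13 from HFD to HFD_IO and 16 from CD to HFD_IO. Among all genes tested the shares that rose were 21.8%, 14.1% and 17.5%. In whole aorta, more macrophages and more RNA per macrophage cannot be told apart. The 8 markers of contractile smooth muscle summed to 5369 to 5994 FPKM in CD, 6919 to 8078 FPKM in HFD and 2475 to 4223 FPKM in HFD_IO. From HFD to HFD_IO 6 of the 8 fell, beside 14.5% of all genes tested. Their part in the rises of the members was not tested. Each gene's log2(FPKM + 1) minus the mean of the 16 markers was therefore compared by exact permutation, whose smallest p is 0.1 (0.12 after adjustment over 24 contrasts).

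Relative to the markers Il1rn was -3.92, -4.16 and -3.99 in CD, -3.71, -3.87 and -3.84 in HFD and -3.53, -3.60 and -3.65 in HFD_IO, a difference of 0.22 in HFD against CD and 0.21 in HFD_IO against HFD. The sign of both differences depended on the scale. The first was 1.59 with a pseudocount of 0.1, -0.75 with a pseudocount of 5 and -0.66 against the summed FPKM of the markers. The second was 0.35 with a pseudocount of 0.1, 0.46 against the summed FPKM, -0.12 with a pseudocount of 5 and -0.05 with quantile normalization. The other 7 genes were lower relative to the markers in HFD than in CD, from -0.74 for Il1a to -1.91 for Gsdmd, with no overlap of the groups. The value of Il1a reversed to 0.50 with a pseudocount of 0.1 and to 0.04 with TPM.

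Nlrp3 relative to the markers was -3.97, -3.93 and -3.80 in CD, -5.45, -5.89 and -5.34 in HFD and -5.59, -5.51 and -5.56 in HFD_IO. Its difference was -1.66 in HFD against CD and 0.01 in HFD_IO against HFD, where the groups overlapped (exact permutation p = 1). Il1b differed by 0.09 and Casp1 by -0.20 in HFD_IO against HFD, both with overlap. Il18, Pycard and Gsdmd were lower relative to the markers in HFD_IO than in HFD by -0.66, -0.74 and -0.54, without overlap. The iron differences of Il1b and Nlrp3 relative to the markers depended on the scale: they were 0.62 and 0.84 with a pseudocount of 0.1, 0.36 and 0.39 with TPM, 0.34 and 0.26 against the summed FPKM of the markers, -0.21 and -0.29 with quantile normalization and -0.44 and -0.54 with a pseudocount of 5.

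**Figure D4:**
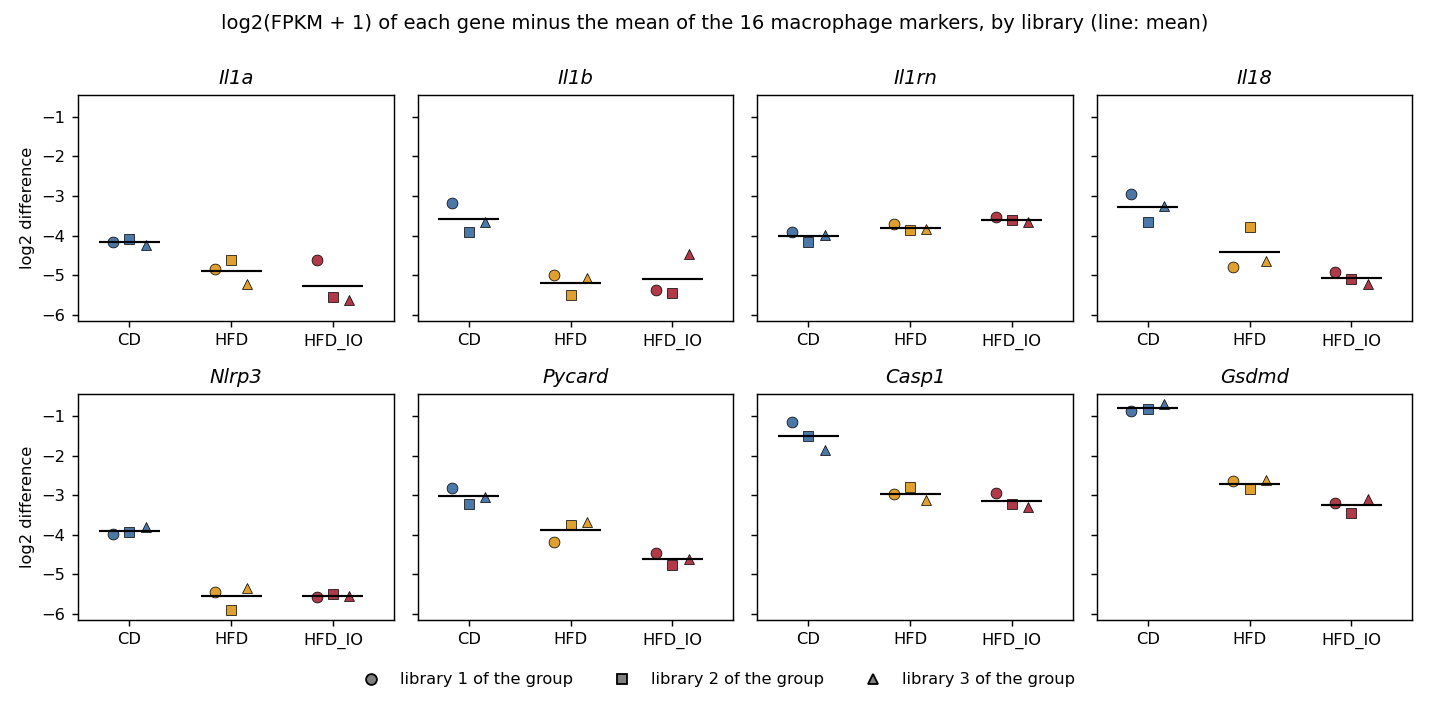
Log2(FPKM + 1) of each gene minus the mean of 16 macrophage markers (y axis) in each library by group (x axis); lines are group means. Il1rn stays between -4.16 and -3.53 in all 9 libraries, while every other gene is lower in all HFD and HFD_IO libraries than in CD.

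The wider family and its receptors were followed as a list of 19 genes, of which 9 passed the filter. From CD to HFD 4 rose and 2 fell, from HFD to HFD_IO 3 rose and 0 fell, and from CD to HFD_IO 5 rose and 1 fell. Among all genes tested the shares were 21.8%, 14.1% and 17.5% higher and 17.6%, 14.5% and 15.0% lower. Il1r1, the receptor that transmits both interleukin-1 signals, measured 10.2, 11.6 and 10.8 FPKM in CD, 8.38, 8.39 and 8.10 FPKM in HFD and 11.6, 12 and 11.5 FPKM in HFD_IO. It fell by 0.35 (SE 0.08, adjusted p = 0.00929) with the high fat diet and rose by 0.45 (SE 0.08, adjusted p = 0.00521) with iron. Il18bp rose by 1.40 (SE 0.42, adjusted p = 0.0287) from CD to HFD, from a mean of 4.16 to 13.2 FPKM, and this call was lost without CD_2, CD_3, HFD_1 or HFD_2 (adjusted p 0.0794 to 0.0919), with TPM (0.0742), with no filter (0.0725) and with the trend over gene length removed (0.0505). Il1rl2, the receptor of the interleukin-36 ligands, rose by 0.54 (adjusted p = 0.0176) from CD to HFD, which was lost with TPM (0.0623), without CD_2 (0.0636) and without HFD_1 (0.0518). Il33, an alarm cytokine of stromal cells, lay at 14.7 to 17.4 FPKM in CD, 15.3 to 23.9 FPKM in HFD and 9.23 to 13.9 FPKM in HFD_IO and did not pass the test (adjusted p = 0.0639 for HFD_IO against HFD). The decoy Il1r2, the co-receptor Il1rap and the interleukin-33 receptor Il1rl1 stayed at or below 1.06 FPKM and were not tested.

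Among 22 genes for sensors, adaptor, caspases and pore proteins, 15 passed the filter, of which Nlrp3, Mefv and Naip6 did so through HFD_IO alone. From CD to HFD 4 rose and 0 fell, from HFD to HFD_IO 11 rose and 0 fell, and from CD to HFD_IO 13 rose and 0 fell. Of all genes tested, 21.8%, 14.1% and 17.5% were higher in these comparisons, and 17.6%, 14.5% and 15.0% were lower. Once tested, Nlrp3, Mefv and Naip6 had to be higher in HFD_IO, so the 11, the 13 and the medians of those comparisons are partly fixed by the filter. Their median log2 change was 0.32, 0.76 and 1.10, beside 0.06, 0.00 and -0.01 for all genes tested. Casp4, the mouse caspase-11 that senses bacterial lipopolysaccharide in the cytosol, measured 4.87, 2.19 and 2.89 FPKM in CD, 3.71, 4.48 and 3.22 FPKM in HFD and 10.2, 8.46 and 7.73 FPKM in HFD_IO. It rose by 1.03 (SE 0.21, adjusted p = 0.00916) from HFD to HFD_IO. Aim2, the sensor of cytosolic DNA, rose by 0.85 (adjusted p = 0.0214) in the same comparison, from a mean of 1.39 to 3.31 FPKM; the call was lost with no filter (0.0618) and without HFD_3, HFD_IO_1 or HFD_IO_2 (0.0658 to 0.0742). Naip2 and Naip5, receptors for bacterial proteins, rose by 1.18 and 0.89, but they are close copies of each other and the way shared reads were counted is not given, so their separate values are uncertain. Ninj1, whose product ruptures the membrane of dying cells, was at 60.9 to 65.1 FPKM in CD, 130 to 139 FPKM in HFD and 152 to 205 FPKM in HFD_IO. It rose in both steps, by 1.09 (adjusted p = 0.000766) and 0.44 (adjusted p = 0.0304), and the second call was lost with no filter (0.0582), with only these groups in the model (0.0555) and when any library of these groups except HFD_IO_3 was left out (0.0617 to 0.101). Gsdme, another gasdermin, rose by 0.49 (adjusted p = 0.0338) with iron, and the call was lost with quantile normalization (0.0709), with the trend over gene length removed (0.293), with no filter (0.0854) and without any one library of these groups except HFD_IO_1 (0.0585 to 0.116). Casp8, a caspase that starts apoptosis, rose by 0.56 (adjusted p = 0.00583) from CD to HFD, a call lost with TPM (0.262). Mefv, which encodes the sensor pyrin, was higher by 0.93 (adjusted p = 0.0133) in HFD_IO than in HFD, lost without HFD_IO_2 (0.0502). Because the filter admitted Mefv by its HFD_IO values alone, this direction was fixed beforehand. Its adjusted p is therefore no separate evidence of a rise. Card9, an adaptor of fungal recognition, rose by 1.54 (adjusted p = 0.000659) from CD to HFD_IO. Nlrc4 reached 1.53 FPKM at most and was not tested.

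Of 20 genes for triggers and modulators of the inflammasome, 6 rose and 2 fell from CD to HFD, 8 rose and 1 fell from HFD to HFD_IO, and 10 rose and 2 fell from CD to HFD_IO. The shares over all genes tested were 21.8%, 14.1% and 17.5% higher and 17.6%, 14.5% and 15.0% lower. In HFD against CD the median log2 change of the list was 0.11, beside 0.06 for all genes tested. P2rx7, the ATP-gated channel that opens a route for potassium loss, measured 4.44, 4.66 and 4.66 FPKM in CD, 4.24, 2.56 and 3.13 FPKM in HFD and 8.42, 8.34 and 8.02 FPKM in HFD_IO. It fell by 0.39 (SE 0.13, adjusted p = 0.0418) from CD to HFD, a call lost when any library of these groups except HFD_1 was left out (0.0551 to 0.132), with no filter (0.0855), with quantile normalization (0.0585), with only these groups in the model (0.0874) and with the trend over gene length removed (0.0887), and rose by 1.12 (SE 0.13, adjusted p = 0.00122) from HFD to HFD_IO. Kcnk13, a potassium channel, measured 0.454, 0.583 and 0.600 FPKM in CD, 3.18, 2.69 and 2.12 FPKM in HFD and 9.35, 11.9 and 9.92 FPKM in HFD_IO. It separated all 3 groups, with rises of 1.23 (adjusted p = 0.000594) and 1.64 (adjusted p = 0.000352). Pstpip1, which binds pyrin, rose by 0.79 and 1.15, and the channel P2rx4 by 0.81 and 0.77. Panx1, which forms channels that release ATP, rose by 1.06 with iron (adjusted p = 0.00437). Ctsb, the lysosomal protease cathepsin B, rose by 2.21 and 0.79, the second lost with no filter (0.0648) and without HFD_3, HFD_IO_1 or HFD_IO_2 (0.0504 to 0.0570). Txn1, which encodes thioredoxin, rose by 1.03 (adjusted p = 0.00536) from CD to HFD, lost with quantile normalization (0.0568), and the protease inhibitor Serpinb1a rose by 1.05 (adjusted p = 0.0113). With TPM the high fat diet rises of Pstpip1 and P2rx4 did not pass (0.0540 and 0.117). Nek7, a partner of NLRP3, lay at 16.7 to 22.8 FPKM and Txnip, a thioredoxin-binding protein, at 121 to 240 FPKM over all 9 libraries, and neither passed the test in any comparison.

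Receptor signalling genes of the interleukin-1 and Toll-like family were measured as 23 genes, all of which passed the filter. From CD to HFD 3 rose and 4 fell, from HFD to HFD_IO 9 rose and 1 fell, and from CD to HFD_IO 12 rose and 0 fell. The first split, 3 and 4 of 23, lies at or below the 21.8% higher and 17.6% lower among all genes tested. For the second split these shares were 14.1% and 14.5%, and for the third 17.5% and 15.0%. With TPM the first split became 2 and 10, the second 15 and 1 and the third 5 and 2. Among all 13883 genes tested the TPM splits were 1018 and 4948, 2373 and 1160, and 1528 and 3800. In the first, the median log2 change was -0.30 for the list and -0.30 for all genes tested. Nfkbia, the inhibitor of NF-kappaB, measured 43.8, 46.1 and 42.7 FPKM in CD, 75.6, 79.2 and 78.5 FPKM in HFD and 45.5, 42.4 and 44.9 FPKM in HFD_IO. It rose by 0.80 (SE 0.09, adjusted p = 0.000566) with the high fat diet and fell by 0.80 (SE 0.09, adjusted p = 0.00098) when iron was added, so that the HFD_IO and CD values overlapped. Chuk, a kinase that acts upstream of NF-kappaB, measured 13.1, 9.37 and 9.53 FPKM in CD, 6.17, 5.61 and 5.55 FPKM in HFD and 8.76, 8.07 and 6.74 FPKM in HFD_IO. It fell by 0.77 (adjusted p = 0.00351) from CD to HFD, and the difference from HFD to HFD_IO was 0.38 (adjusted p = 0.0693). Ikbkg, the regulatory subunit of the same kinase complex, rose by 0.66 (adjusted p = 0.0354) from HFD to HFD_IO, lost with no filter (0.0876), with quantile normalization (0.0505), with only these groups in the model (0.0665), with the trend over gene length removed (0.0847) and without HFD_1, HFD_2, HFD_3 or HFD_IO_2 (up to 0.0911). Tlr4, the receptor of lipopolysaccharide, rose by 0.49 (adjusted p = 0.0228) from HFD to HFD_IO, lost with no filter (0.0519) and without HFD_3, HFD_IO_1 or HFD_IO_2 (up to 0.0719). Tlr2 and Cd14, which take part in sensing bacterial lipids, rose in both steps, by 0.66 and 0.87 and by 1.67 and 1.19; Cd14 is also one of the macrophage markers. The Tlr2 rise with the high fat diet was lost with TPM (0.210) and without CD_2, CD_3 or HFD_2 (0.0514 to 0.0578), and the Cd14 rise with iron without HFD_IO_2 (0.0510).

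Of 23 genes known to be induced by interleukin-1 through NF-kappaB, 18 passed the filter, Tnf through HFD_IO alone. From CD to HFD 7 rose and 2 fell, from HFD to HFD_IO 10 rose and 0 fell, and from CD to HFD_IO 12 rose and 0 fell. With FPKM as deposited, 21.8%, 14.1% and 17.5% of all genes tested were higher and 17.6%, 14.5% and 15.0% lower. With TPM the first split was 5 and 5, beside 1018 higher and 4948 lower among all 13883 genes tested. Once tested, Tnf had to be higher in HFD_IO. The chemokine Ccl2 measured 2.48, 0.648 and 1.5 FPKM in CD, 6.68, 6.25 and 3.03 FPKM in HFD and 23.9, 17.9 and 14.5 FPKM in HFD_IO, with rises of 1.32 (adjusted p = 0.0124) and 1.67 (adjusted p = 0.0071). Ccl7 rose by 1.42 and 1.2, and the metalloproteinase Mmp3 by 0.81 and 1.14, the first Mmp3 rise lost with TPM (0.117), with quantile normalization (0.120), with the trend over gene length removed (0.0650) and without CD_3, HFD_2 or HFD_3 (0.0503 to 0.0584). Saa3, an acute-phase serum amyloid gene, measured 0.855, 0.283 and 0.674 FPKM in CD, 4.56, 17.5 and 17.6 FPKM in HFD and 14.8, 7.00 and 1.67 FPKM in HFD_IO. It rose by 2.97 (adjusted p = 0.00741) from CD to HFD, and the difference from HFD to HFD_IO was -0.83 (adjusted p = 0.357), with overlap. Cxcl5, a neutrophil chemokine, rose by 1.41 (adjusted p = 0.0354) from HFD to HFD_IO, lost with no filter (0.0943), with a pseudocount of 5 (0.0701), with only these groups in the model (0.0665) and without HFD_2 or HFD_3 (0.101 and 0.103). Endothelial Sele rose by 1.44 (adjusted p = 0.00455) with iron. Icam1 fell by 0.88 (adjusted p = 0.0232) from CD to HFD and rose by 0.81 (adjusted p = 0.041) from HFD to HFD_IO; the fall was lost without CD_2, CD_3 or HFD_3 (up to 0.0816) and the rise without any one library of these groups except HFD_1 (up to 0.116). With no filter neither Icam1 call passed (0.0567 and 0.0999). The 7 endothelial markers summed to 387 to 565 FPKM in CD, 122 to 236 FPKM in HFD and 253 to 299 FPKM in HFD_IO. From CD to HFD 6 of the 7 fell, beside 17.6% of all genes tested. From HFD to HFD_IO 2 rose, beside 14.1%. The part of these markers in the Icam1 and Sele differences was not tested. Il6 stayed at or below 0.958 FPKM and was not tested.

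**Figure D5:**
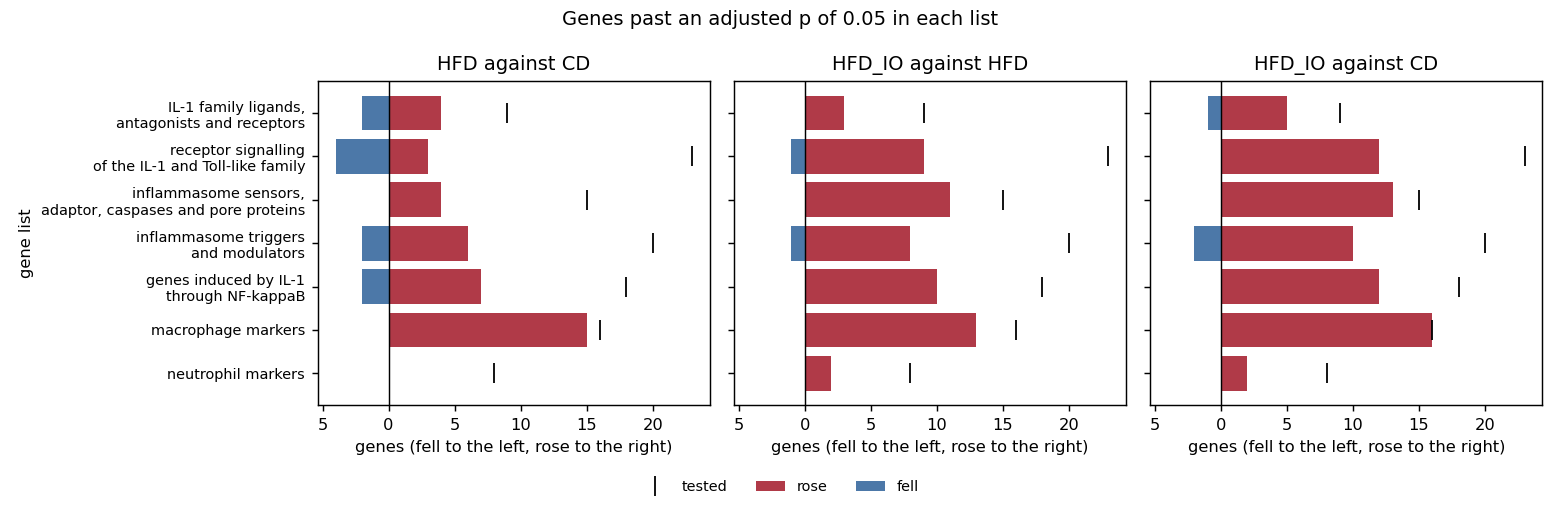
Number of genes past an adjusted p of 0.05 (x axis; risen to the right, fallen to the left) in 5 pathway lists and 2 marker lists (y axis) in 3 comparisons; vertical ticks mark the number tested. Among all genes tested 21.8% rose and 17.6% fell in HFD against CD, and 14.1% rose and 14.5% fell in HFD_IO against HFD. The inflammasome list has 4 risen genes in HFD against CD and 11 in HFD_IO against HFD, and 0 fell in either. Of its 15 genes tested, Nlrp3, Mefv and Naip6 passed the filter through HFD_IO alone and had to be higher there.

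The profiles most like each member were found among protein-coding genes by the root-mean-square difference of centred log2(FPKM + 1) over the 9 libraries, which carry the group differences themselves. Il1a was nearest to the chemokine Cxcl1 (0.18), then Parvg and Stra6l. Il1b was nearest to the neutrophil receptor Csf3r (0.23), then Fetub and Runx2, and Il1rn to the Fc receptor Fcgr3 (0.14), then the lysosomal protease Lgmn and the integrin Itgb2. Casp1 was nearest to Aim2 (0.12), then Tspan13 and Stxbp2, and Nlrp3 to Tmem171 (0.15), then Ptger2 and Sh3tc1. Pycard was nearest to the proton pump subunit Atp6v1h (0.10), then Tmem9b and Asah1, and Gsdmd to Zfp202 (0.06), then Atp9b and Wdr11. Il18 was nearest to Il2rg (0.09), the shared receptor chain of lymphocyte cytokines, then Tnfrsf13b, a B cell receptor (0.15), and Cyp4f18. For 7 of these members the median difference to the other protein-coding genes compared was 0.55 to 1.32. For Gsdmd, which varied least, it was 0.34. Genes with Gm or Rik symbols were left out of these comparisons.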

How the data were processed

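Per the labels' protocols, libraries were made from total RNA of the aorta with a NEBNext Ultra RNA kit. The authors deposited 1 table of FPKM values per gene and library, with gene lengths. The submitters' processing notes name HISAT2 and the build hg38, a human build; the gene identifiers are mouse, and 98.3% of those found in GENCODE M21 have its GRCm38 coordinates, so GRCm38 was used. No source used here names the counter or its strand setting. The table's columns name the group but not the single aorta, so they were used as 3 unordered replicates a group.

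Tests covered the 13883 of 54532 genes that reached 1 FPKM in 3 or more of the 9 libraries, with limma 3.58.1 in R 4.3.3 on log2(FPKM + 1), with 1 model of 3 group means, a mean-variance trend and Benjamini-Hochberg adjustment over all genes tested, at an adjusted p of 0.05. limma's 95% intervals are given for single genes. Whole reads were recovered from FPKM and gene length (100% of values within 0.05 read of a whole number) and used for limma's voom as an alternative. The library sizes given to voom carried the deposited scaling, so voom is no check of that scaling. Their totals, 16660963 to 18308450 per library, leave the lowest members with few reads. Ratios and levels relative to macrophage markers were tested by exact permutation. The code was tested on simulated data, where some large changes of genes at low FPKM were missed. The share of changes it had to recover was lowered after a first run. Uncalled differences of the lowest members are limited in the same way.

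Every member is named. Of the lists, 14 genes were always named, with up to 4 genes of the largest change per list and comparison, taken from called genes with non-overlapping groups, and the 3 genes most like each member. The members and lists were chosen with earlier results of these data known. Alternatives were other pseudocounts, filters, scalings and fits, a correction for gene length, and leaving out libraries. Protein sequences were not analysed here.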

Additional observations from a re-analysis of the deposited data

How the results depend on the processing

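No paired analysis was possible because the aortas are numbered through the series, so groups share no replicate number. Il1rn (all 3 comparisons), Pycard (HFD against CD, HFD_IO against CD), and Il1a and Il1b (HFD_IO against CD) kept their calls under every alternative that tested them. Nlrp3 passed the filter through HFD_IO alone, so its calls under filtered settings are no sign of stability. The count of members higher in HFD_IO against HFD was 2 of 8 without the filter, beside 1532 of all 30663 genes. With 1 library left out it was 2 to 4, beside 1182 to 1749 of all 13883 genes. The same count was 2 to 3 in HFD against CD, beside 2043 to 3316 genes. In HFD_IO against CD it was 5 to 7, beside 1785 to 2573 genes. At FPKM of at least 5, where 3 members were tested, 1 was higher in HFD against CD and 2 in HFD_IO against CD. Of all 8441 genes tested at that filter, 2580 and 1795 were higher. One member, Gsdmd, was lower in HFD against CD with TPM (1) and with the length trend removed (1). In these settings 4948 and 2098 of the 13883 genes tested were lower. Without the filter the adjusted p was 0.0776 for Il1a in HFD against CD, and 0.0656 for Il1b and 0.0528 for Gsdmd in HFD_IO against HFD. Il1a in HFD against CD also missed the threshold with a pseudocount of 5 (0.0825) and the length trend removed (0.0986).

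Uncalled differences that changed sign in HFD against CD were Il1b (-0.041 with TPM, -0.12 with the length trend removed, -0.051 to 0.37 with 1 library left out, negative without CD_2 or HFD_1), Nlrp3 (-0.099 with TPM, -0.067 to 0.21 with 1 library left out, negative without HFD_1) and Casp1 (-0.078 with TPM, -0.020 with the length trend removed). Relative to the macrophage markers in HFD against CD, Il1a became 0.50 with a pseudocount of 0.1 and 0.041 with TPM, and Il1rn -0.75 with a pseudocount of 5 and -0.66 against their summed FPKM. In HFD_IO against HFD, Il1b became -0.44, Il1rn -0.12 and Nlrp3 -0.54 with a pseudocount of 5, and -0.21, -0.046 and -0.29 with quantile normalization. Casp1 became 0.054 against the summed FPKM. With 1 library left out Il1b ranged from -0.23 to 0.26 and Nlrp3 from -0.16 to 0.12. Il1b minus Il1rn in HFD_IO against HFD became 0.27 with a pseudocount of 0.1 and 0.069 with TPM, and ranged from -0.47 to 0.052 with 1 library left out. The cause of these changes was not tested, except that fewer genes were tested at FPKM of at least 5.

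Over all genes, the counts that moved by more than 1.5 times were those with TPM, given with the main counts in the report, those at FPKM of at least 5 (1332 lower in HFD against CD, 1288 higher in HFD_IO against HFD, 1367 lower in HFD_IO against CD) and those with 1 library left out (in HFD_IO against HFD 1182 to 1749 higher and 1093 to 1899 lower, the lowest both without HFD_3; in HFD_IO against CD 1260 lower without HFD_IO_2). With voom on the recovered reads 3043 genes were higher and 2487 lower in HFD against CD, 2072 and 2012 in HFD_IO against HFD, and 2453 and 2170 in HFD_IO against CD. Depth limited Il1a in CD, where 3 to 9 reads stood behind each value, covering counting error only.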
